A study of Mus musculus with 13 samples.

Results

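Esophageal epithelium of mice with L2-Cre and 2 floxed alleles of the gene of p120-catenin, without a named mass, was compared with esophageal epithelium of L2-Cre mice with wild-type alleles. These were 7 of the 13 arrays of the study, chosen by the labelled tissue and genotype. The flox/flox group (Cre/p120 flox/flox) held animals 193, 307, 313 and 335, and the control group (Cre/p120 +/+) held animals 214, 216 and 217, all on a mixed C57Bl/6 and 129 background. Every animal carried L2-Cre, a Cre transgene used to delete genes in stratified squamous epithelium of the mouth, esophagus and forestomach, so the design holds no sample without Cre. Each array was made from the epithelium of 1 animal, lifted off with dispase, and the labels state no age. Values are log2 intensities of an Affymetrix gene array, and every difference is flox/flox minus control on that scale.

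p120-catenin binds the juxtamembrane part of classical cadherins and keeps them at the cell surface. The esophagus is lined by a stratified squamous epithelium, in which basal cells make Krt5 and Krt14 and suprabasal cells make Krt4 and Krt13. In wounded or inflamed squamous epithelium, Krt6a, Krt6b, Krt16 and Krt17 are induced. The muscle wall of the mouse esophagus is largely striated, so muscle RNA marks tissue from below the epithelium that stayed with the sheet.

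The labelled tissue was checked against 10 defining genes of squamous esophagus. Their mean lay between 11.19 and 11.36 on every array, with Krt13 between 13.95 and 14.13 and Krt4 between 13.80 and 14.00. Crnn, a gene of the upper layers, was the lowest of them, at 4.91 to 5.51. The median intensity of the 7 arrays before the log step lay between 65.3 and 70.8, and their number limits the precision.

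The arrays differed in how much tissue from below the epithelium they held. Over 32 skeletal muscle genes the mean was 8.60 in flox/flox 335, 7.48 in control 214 and 7.23 in flox/flox 307, against 5.46 to 5.71 on the other 4 arrays. The 3 arrays rich in striated muscle RNA were thus 1 control and 2 flox/flox arrays. The animals also differed in sex. Read from Xist and the Y-linked gene Eif2s3y, control 214 and flox/flox 193, 313 and 335 were female, and controls 216 and 217 and flox/flox 307 were male.

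**Figure D1:**
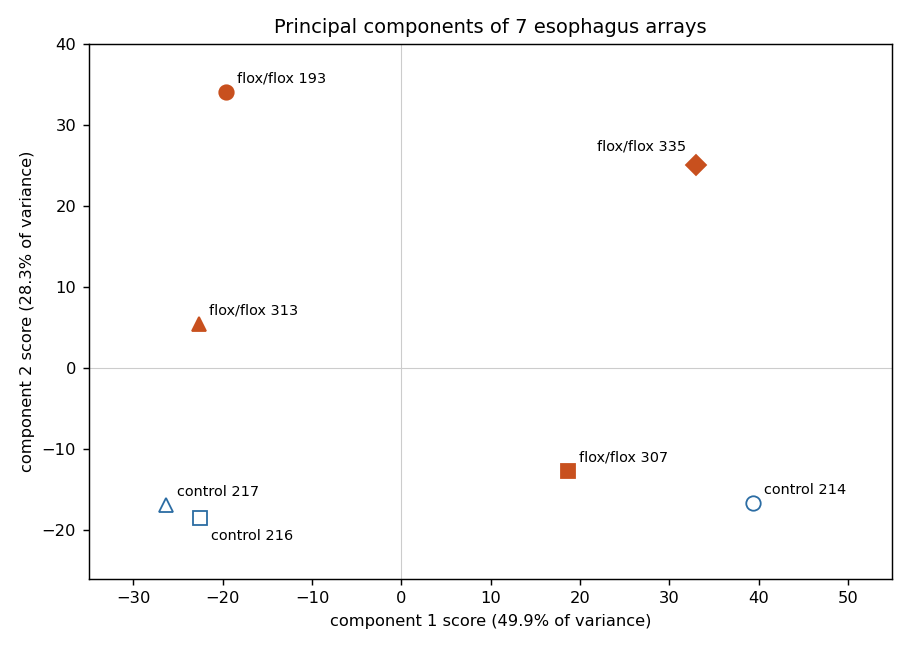
Scores of the 7 esophagus arrays on components 1 (x) and 2 (y) of the 15317 genes tested, with each point an array, open blue for control and filled orange for flox/flox. Component 1 separates the 3 arrays rich in muscle RNA (18.7 to 39.4) from the others (-26.3 to -19.6), and component 2 has flox/flox 193, 335 and 313 above 0.

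The leading component of the 7 arrays held 49.9% of the variance and set the 3 muscle-rich arrays apart. Scores on it were 39.4, 33.0 and 18.7 in control 214 and flox/flox 335 and 307, and -19.6 to -26.3 on the other 4 arrays. Their order, with 214 first, was that of the fibroblast means (9.65, 8.81 and 8.35), whereas 335 was first in skeletal muscle genes. The next component held 28.3%. On it the controls stood at -16.7, -18.5 and -16.9, and the flox/flox arrays at 34.1 in 193, 25.1 in 335, 5.5 in 313 and -12.7 in 307. Every flox/flox array thus stood above every control on this component. The flox/flox animals were spread widely along it, and 307 lay next to the controls. Across genes, arrays 216 and 217 correlated at 0.991, control 214 correlated at 0.945 with each of them, and 214 correlated at 0.983 with flox/flox 307.

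No gene passed the test between the genotypes. Among 15317 genes tested, 0 (0%) had a limma adjusted p under 0.05, and 1442 (9.41%) had an unadjusted p under 0.05, 565 (3.69%) higher and 877 (5.73%) lower in flox/flox. The groups did not overlap in 644 genes (4.20%) with flox/flox higher and in 964 (6.29%) with flox/flox lower. The difference was above 0 in 51.4% and below 0 in 48.6% of genes, with a median of 0.01. With all 13 arrays of the study in the fit, which takes the spread from the forestomach samples too, 2 genes (0.0131%) were called, Sdc3 and Lrrfip2. Restricting the test to the 8657 genes above a log2 value of 7 on 3 arrays called 1 gene (0.0116%), Rida, at -0.86 (adjusted p = 0.0463). Counts of list members are set beside these shares, and "higher" and "lower" describe values that did not pass the test.

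Ctnnd1, which encodes p120-catenin, was at 10.21, 10.33 and 10.50 in controls 214, 216 and 217 and at 10.13, 9.95, 10.08 and 10.04 in flox/flox 193, 307, 313 and 335. The groups did not overlap, though flox/flox 193 lay close to control 214. The difference was -0.29 (SE 0.09, 95% interval -0.51 to -0.07, n = 4 and 3, limma adjusted p = 0.439). Neither the floxed exons nor the probe positions are stated, so whether the probe set reads the deleted stretch is unknown and the value does not check the labels.

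Stress keratins held the largest differences among the genes named by rule, with Krt6a and Krt6b first. Krt6a was at 6.50, 6.01 and 6.40 in controls 214, 216 and 217 and at 10.87, 8.33, 10.33 and 10.91 in flox/flox 193, 307, 313 and 335. Every flox/flox array stood above every control, with 307 nearest to them. The difference was 3.81 (SE 0.60, 14.0-fold, 95% interval 2.40 to 5.22, limma adjusted p = 0.363). Krt6b, its close relative, was at 8.80, 8.04 and 9.55 in controls and at 13.28, 10.07, 12.30 and 13.08 in flox/flox animals in the same order. Its groups did not overlap either, and the difference was 3.39 (SE 0.78, adjusted p = 0.406). Krt6a and Krt6b are close copies, and whether their probe sets read each other was not tested.

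Krt17 was at 6.68, 7.19 and 6.79 in controls and at 7.90, 7.39, 8.24 and 7.78 in flox/flox 193, 307, 313 and 335, a difference of 0.94 (SE 0.21, adjusted p = 0.406). Krt16 was at 6.01, 5.51 and 6.04 in controls and at 8.15, 5.19, 7.55 and 6.79 in flox/flox animals. Here flox/flox 307 lay below all controls, and the difference of 1.07 had an SE of 0.64. Of the 4 stress keratins, 3 were higher with an unadjusted p under 0.05 and groups that did not overlap. Over all genes the shares were 3.69% and 4.20%. The list's median difference was 2.23.

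**Figure D2:**
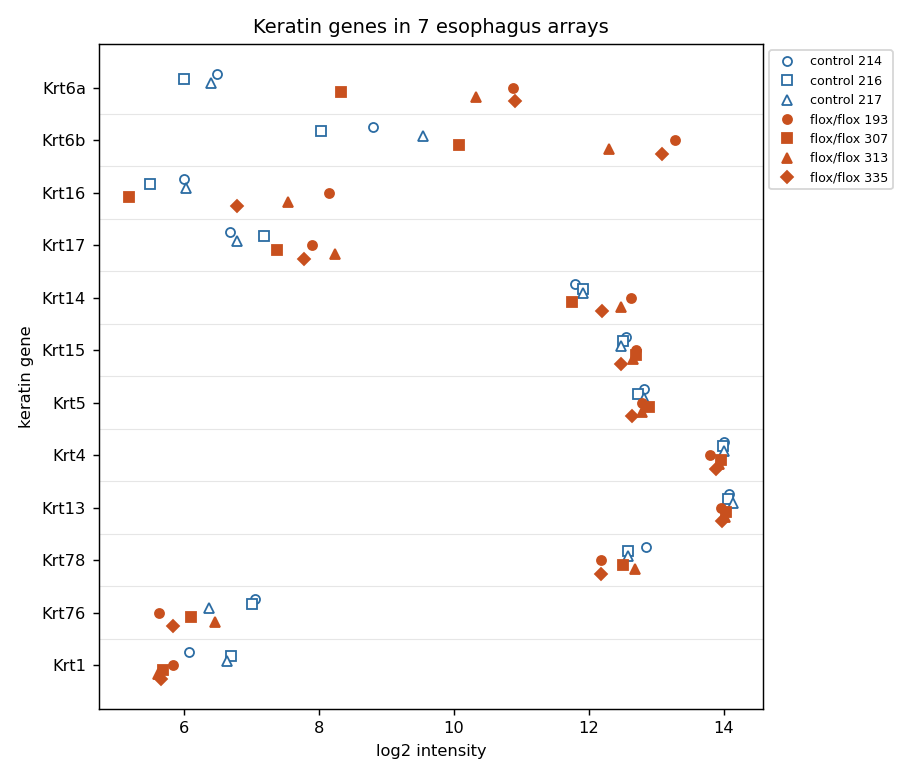
Log2 intensity (x) of 12 keratin genes (y) in the 7 esophagus arrays; open blue symbols are controls and filled orange symbols flox/flox animals. Krt6a and Krt6b have all flox/flox arrays above the controls, while Krt4, Krt13 and Krt5 lie within narrow ranges.

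Among other keratins of squamous layers, Krt5, Krt4 and Krt13 differed little, while Krt14, Krt1 and Krt76 differed more. Krt5 was between 12.64 and 12.89 on all 7 arrays, with a difference of -0.01 (SE 0.08, 95% interval -0.20 to 0.19). Krt14 was at 11.79 to 11.92 in controls and at 12.62, 11.75, 12.47 and 12.20 in flox/flox 193, 307, 313 and 335, a difference of 0.39 (SE 0.20, adjusted p = 0.590). Among suprabasal keratins, 9 of 9 tested members were below 0, with a median of -0.12 against 0.01 over all genes, and 2 of 11 on the array did not pass the filter on low values. That median was -0.19 without control 214 and -0.08 without flox/flox 193. Of the 9, 2 were lower at an unadjusted p under 0.05, against 5.73% of all genes. Groups did not overlap in 3 of the 9, with flox/flox lower, against 6.29% of all genes. Krt13 and Krt4 had groups that did not overlap, at differences of only -0.10 and -0.11 (both SE 0.07). Krt1, a keratin of cornifying skin that is low here, was at 6.08, 6.70 and 6.64 in controls and 5.85, 5.70, 5.62 and 5.66 in flox/flox animals, a difference of -0.77 (SE 0.16, adjusted p = 0.377). Krt76, a keratin of oral epithelium, differed by -0.80 (SE 0.24, adjusted p = 0.434), and its groups overlapped through control 217 and flox/flox 313. Keratins of simple epithelia had a median of 0.20 over 5 genes, which was 0.10 without control 217, 0.13 without control 214 and -0.03 without flox/flox 335. Over the 43 tested genes of the whole keratin family, 19 were above and 24 below 0.

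Junction genes showed wide differences in a few members, with list medians near 0. Whichever animal was left out, the medians of the junction lists named here lay between -0.10 and 0.11. In the list of cadherins and catenins, 6 of 14 tested genes were above and 8 below 0 (median -0.05). Of the 14, 3 were higher and 2 lower at an unadjusted p under 0.05, against 3.69% and 5.73% of all genes. Groups that did not overlap numbered 3 with flox/flox higher and 2 with it lower, against 4.20% and 6.29% of all genes. P-cadherin (Cdh3), the classical cadherin of basal cells, was at 7.45, 7.97 and 7.85 in controls 214, 216 and 217 and at 9.22, 8.15, 8.78 and 8.88 in flox/flox 193, 307, 313 and 335. All flox/flox arrays were higher, by 1.0 on average (SE 0.25, 95% interval 0.41 to 1.58, limma adjusted p = 0.408). E-cadherin (Cdh1), the main cadherin of this epithelium, was at 10.95 to 10.98 in controls and 11.10 to 11.19 in flox/flox animals, a difference of 0.17 (SE 0.07, adjusted p = 0.502). Pkp4, a relative of p120-catenin in the same armadillo family, was at 8.40, 8.25 and 8.29 in controls and 9.01, 8.82, 8.82 and 8.63 in flox/flox animals, a difference of 0.51 (SE 0.10, adjusted p = 0.377). Beta-catenin (Ctnnb1), alpha-catenin (Ctnna1) and plakoglobin (Jup) differed by 0.11, -0.08 and 0.10, with intervals of -0.06 to 0.28, -0.26 to 0.10 and -0.08 to 0.28.

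The tyrosine kinases Fer and Fyn, both of which act on p120-catenin, had groups that did not overlap and differed by -0.57 (SE 0.14) and -0.58 (SE 0.18). Kifc3, a motor protein recruited to adherens junctions, differed by -0.38 (SE 0.14). None of these was called (adjusted p = 0.408, 0.439 and 0.468 by limma). Nectins and actin linkers had 6 genes on each side of 0 and a median of 0.00.

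In the desmosome, the cadherin Dsg3, which is made in basal and lower layers of squamous epithelium, was at 11.42, 11.39 and 11.52 in controls 214, 216 and 217 and at 12.81, 12.06, 12.27 and 12.76 in flox/flox 193, 307, 313 and 335. The groups did not overlap, and the difference was 1.03 (SE 0.19, 95% interval 0.58 to 1.48, limma adjusted p = 0.377). Dsc2 differed by 0.46 (SE 0.14) and Dsg1b, of the upper layers, by -0.25 (SE 0.11). The list as a whole had a median of 0.07, with 6 of 11 members above 0. Of 19 tight junction genes, 8 were above and 11 below 0 (median -0.07). The 2 of 19 with an unadjusted p under 0.05, against 9.41% of all genes, were both lower. Cldn23 was at 7.29, 7.23 and 7.45 in controls and 6.10, 6.86, 6.52 and 6.23 in flox/flox animals (difference -0.90, SE 0.18), and Cldn4 differed by -0.42 (SE 0.16). Gap junction genes had a median of -0.04 over 6 genes, with the connexin Gjb5 at -0.59 (SE 0.20). Hemidesmosome and basal adhesion genes had a median of 0.05 over 13 genes; the integrin subunits Itga2 and Itga6 differed by -0.45 (SE 0.11) and 0.37 (SE 0.13).

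Sdc3 and Lrrfip2 stood out for tight groups. The proteoglycan gene Sdc3 was at 8.40, 8.34 and 8.20 in controls and 7.49, 7.14, 7.15 and 7.19 in flox/flox 193, 307, 313 and 335. Its difference was -1.07 (SE 0.11), with an adjusted p of 0.141 by limma in the esophagus arrays alone and of 0.0378 with all 13 arrays. Lrrfip2 was at 9.55, 9.77 and 9.88 in controls and 8.92, 8.98, 8.95 and 8.72 in flox/flox animals, a difference of -0.84 (SE 0.11, adjusted p = 0.335 by limma, and 0.0378 with all 13 arrays). For Sdc3 the flox/flox array nearest to the controls was 193. With the animal as a block among 13 arrays, since 3 control animals also gave forestomach, 0 genes were called.

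Large differences also lay in secreted proteins and lipid enzymes. Slurp2 and Slurp1, small secreted proteins of squamous cells, differed by -2.48 (SE 0.48, limma adjusted p = 0.377) and -2.04 (SE 0.59, adjusted p = 0.434). Slurp2 was at 10.37, 10.27 and 10.46 in controls 214, 216 and 217 and at 7.21, 8.92, 8.50 and 6.92 in flox/flox 193, 307, 313 and 335. Animals 193 and 335 were the lowest. Wnt5a, a ligand of non-canonical Wnt signalling, was at 7.57, 8.07 and 8.22 in controls and 6.60, 6.75, 5.94 and 6.13 in flox/flox animals, a difference of -1.60 (SE 0.24, adjusted p = 0.363). Acsm3, a mitochondrial acyl-CoA synthetase, differed by -2.04 (SE 0.30), Far2, which makes fatty alcohols, by -1.80 (SE 0.60), and Tmem45a, a gene of keratinizing cells, by -1.67 (SE 0.45).

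On the other side, Ceacam1, a cell adhesion molecule of the immunoglobulin family, was at 5.91, 5.51 and 5.94 in controls and 7.43, 7.81, 8.38 and 8.97 in flox/flox 193, 307, 313 and 335. The difference was 2.36 (SE 0.35, 95% interval 1.55 to 3.17, limma adjusted p = 0.363), and here 307 was not the lowest. The protease gene Tmprss11g differed by 1.91 (SE 0.43), the membrane protein gene Stom by 1.73 (SE 0.36), the defensin Defb3 by 2.36 (SE 0.85), the gasdermin Gsdmc2 by 2.10 (SE 0.89) and the cornified envelope gene Sprr2b by 1.79 (SE 0.54). Gasdermin C and Sprr2 genes have close copies, so the member read is uncertain. Within squamous differentiation, 22 of 30 tested genes were below 0, with a median of -0.19, or -0.10 without flox/flox 193. Sprr2f (1.74, SE 0.64) and Tmprss11d (0.61, SE 0.23) were above 0, and the kallikrein Klk5 was at -1.12 (SE 0.42). Of 12 genes of basal squamous identity, 5 were above and 7 below 0.

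Alarmins were high on the arrays of animals 193, 335 and 313. S100a9, a subunit of the neutrophil and keratinocyte protein calprotectin, was at 6.62, 7.96 and 8.21 in controls 214, 216 and 217 and at 11.37, 7.61, 9.39 and 9.89 in flox/flox 193, 307, 313 and 335. Flox/flox 307 lay within the controls, and the difference was 1.97 (SE 0.83, limma adjusted p = 0.519). Its partner S100a8, chosen after its values were seen, was at 5.41 to 5.85 in controls and at 11.24, 5.82, 7.17 and 9.24. Of 13 tested alarmins and antimicrobial genes, 8 were above 0 (median 0.28), while 2 of 15 on the array did not pass the filter. Of the 13, 4 were higher at an unadjusted p under 0.05, against 3.69% of all genes. The alarmin median was 0.05 without flox/flox 193, 0.07 without control 214 and 0.49 without flox/flox 307, and 0.46 with the muscle mean as a covariate. The defensin Defb4, named outside the rule, was at 12.45 to 12.86 on all arrays. Proliferation genes were above 0 in 21 of 25 (median 0.29), with 1 of 25 at an unadjusted p under 0.05, against 9.41% of all genes. Their mean was 8.25 in flox/flox 313 and 7.16 to 7.64 on the other arrays, and the median was 0.06 without 313 and 0.08 without control 214.

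Genes of detoxification and oxidation stood mostly below 0. Glutathione conjugation and antioxidant genes were below 0 in 30 of 34, against 48.6% of all genes, with a median of -0.30; 12 of them were lower at an unadjusted p under 0.05, against 5.73% of all genes, and 1 higher. Gclm, a subunit of the enzyme that begins glutathione synthesis, was at 9.96, 10.28 and 10.32 in controls 214, 216 and 217 and at 9.70, 9.46, 9.43 and 9.68 in flox/flox 193, 307, 313 and 335. All flox/flox arrays were lower, and the difference was -0.62 (SE 0.12, 95% interval -0.90 to -0.33, limma adjusted p = 0.377). The transferases Gstt3 and Gstm4 differed by -0.54 (SE 0.10) and -0.72 (SE 0.18). Nqo1, Gstm1 and Gstm2, named after their values were seen, differed by -0.73, -0.73 and -1.0 (SE 0.20, 0.21 and 0.27). The mu class transferases are close relatives, so their probe sets may read each other. Means of the 34 genes were 9.33, 9.44 and 9.49 in controls and 8.91, 9.22, 9.22 and 8.90 in flox/flox animals, so the groups did not overlap.

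Many genes of this list are known targets of the transcription factor NRF2, which binds the antioxidant response element. Its core letters, TGACNNNGC on either strand, occurred in the RefSeq promoter windows (GRCm38.p6, 250 bases before to 50 after the start) of 6 of 32 list members found there, or 18.8%, and of 14.0% of all 27025 genes. The window of Gclm is shown because Gclm had the smallest unadjusted p among the members with a match; it lies at chr3:122245307-122245606 on the plus strand, and the capitals mark the match, which reads TGACNNNGC on the other strand, and such a match only describes the letters.
Gclm: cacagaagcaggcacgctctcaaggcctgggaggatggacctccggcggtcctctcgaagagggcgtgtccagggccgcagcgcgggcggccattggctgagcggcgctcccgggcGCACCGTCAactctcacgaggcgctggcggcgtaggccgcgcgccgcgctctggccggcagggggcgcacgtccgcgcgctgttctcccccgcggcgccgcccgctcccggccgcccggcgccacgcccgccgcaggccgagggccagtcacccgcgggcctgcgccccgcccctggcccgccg

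The other enzyme lists also lay mostly below 0. Of 16 aldehyde dehydrogenases, 13 were below 0 (median -0.20), 6 of them at an unadjusted p under 0.05, against 5.73% of all genes. Aldh1a7 was at 10.93, 10.95 and 10.98 in controls and at 7.03, 9.52, 10.10 and 6.65 in flox/flox 193, 307, 313 and 335, a difference of -2.63 (SE 0.85, limma adjusted p = 0.442). Aldh1a1, a retinal dehydrogenase of nearly the same sequence, was at 10.02, 10.13 and 9.74 in controls and at 5.59, 8.38, 8.15 and 9.04, a difference of -2.17 (SE 0.74). The flox/flox animals were not in the same order for these relatives: 335 was the lowest for Aldh1a7 and the highest for Aldh1a1. Aldh6a1, a mitochondrial member, differed by -0.37 (SE 0.09). Of 21 cytochromes P450 and carboxylesterases, 18 were below 0 (median -0.30), 9 of them at an unadjusted p under 0.05, against the same 5.73%. Ces1f differed by -1.40 (SE 0.27, adjusted p = 0.377), Ces2e by -0.93 (SE 0.23) and Cyp2s1, a retinoid-metabolising P450 of epithelia, by -0.85 (SE 0.21). Ces1f was at 6.52, 7.43 and 7.59 in controls and at 5.41, 6.05, 5.76 and 5.91 in flox/flox animals. Of 13 alcohol and retinol dehydrogenases and retinoid-binding genes, 11 were below 0 (median -0.15, and -0.26 without flox/flox 307), but Rbp2, a cellular retinol-binding protein, differed by 0.45 (SE 0.10) and was higher on all flox/flox arrays.

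Lipid and energy genes had smaller medians. Cholesterol synthesis genes were below 0 in 16 of 17 (median -0.18), and 0 of 17 had an unadjusted p under 0.05. The list's array mean was 9.80 in flox/flox 193 and 9.97 in 335, and 10.22 to 10.36 on the other 5 arrays, and the median was -0.08 without 193, -0.12 without 335 and -0.28 without 313. Fatty acid and barrier lipid genes were below 0 in 19 of 26 (median -0.13, but -0.22 without control 214 and -0.08 without control 217), with Pparg, a nuclear receptor of lipid metabolism, at -0.57 (SE 0.14) and Elovl5, a fatty acid elongase, at -0.31 (SE 0.08). Glycolysis and hypoxia genes were below 0 in 16 of 21 (median -0.11, and -0.17 without control 217), led by Car9 at -0.67 (SE 0.13) and P4ha1 at -0.47 (SE 0.15). Respiratory chain genes were above 0 in 14 and below 0 in 17 of 31, with array means within 9.86 to 9.93; Ndufa1, Ndufa4, Atp5o and Sdhc were higher on all flox/flox arrays, by 0.35, 0.29, 0.21 and 0.21, and Atp5d, Ndufs3 and Ndufa8 were lower on all of them, at -0.15, -0.08 and -0.07. Sdhc, Atp5d, Ndufs3 and Ndufa8 were named after their values were seen. Groups did not overlap in 4 of the 31 with flox/flox higher and in 3 with it lower, against 4.20% and 6.29% of all genes. At an unadjusted p under 0.05, 4 of the 31 were higher and 0 lower, against 3.69% and 5.73% of all genes. Metabolic genes of the muscle type, such as Eno3 and Pygm, are given with the muscle below.

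**Figure D3:**
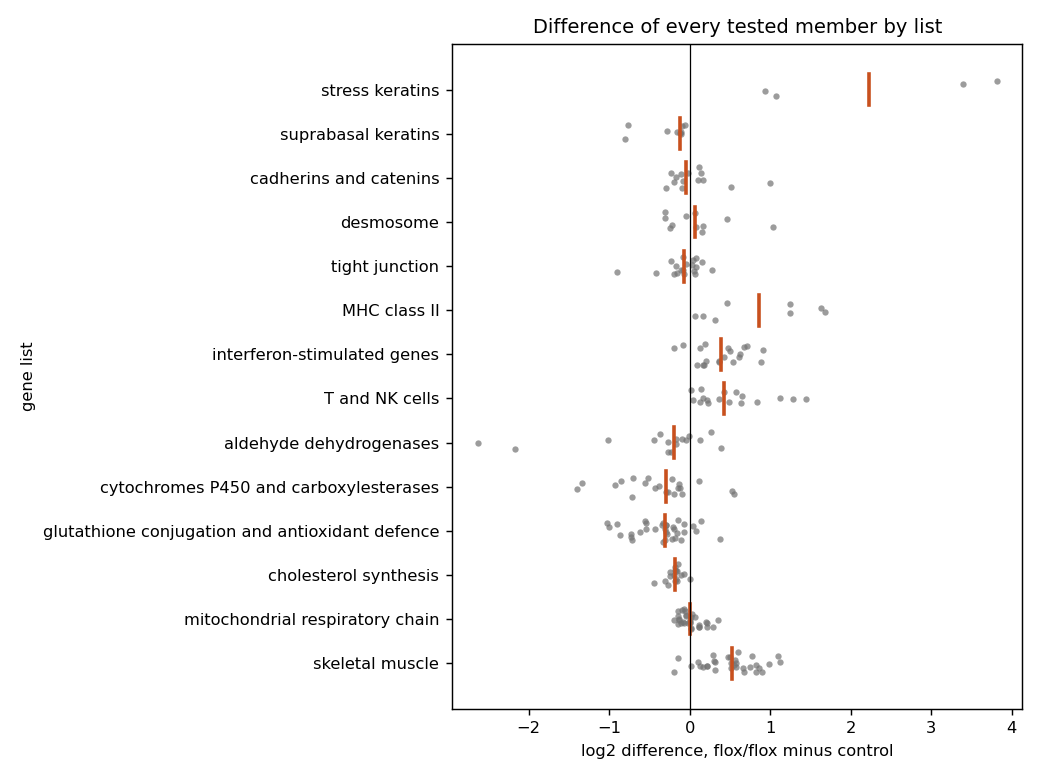
Log2 difference, flox/flox minus control (x), of every tested member (grey points) of 14 gene lists (y), with the orange bar at the list's median. Stress keratins and MHC class II lie above 0, and aldehyde dehydrogenases, cytochromes P450 and carboxylesterases, glutathione and cholesterol genes lie mostly below it.

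Among the immune lists, MHC class II and interferon-stimulated genes had their highest array means in flox/flox 193 and 335. In bulk tissue, more cells of a type and more RNA per cell cannot be told apart. The MHC class II genes, which encode the molecules that present antigen to helper T cells, were above 0 in 8 of 8 tested members, against 51.4% of all genes, with a median of 0.86; 0 of 8 had an unadjusted p under 0.05. The median was 0.43 with sex as a covariate and 0.57 without flox/flox 335. H2-Aa was at 8.95, 6.10 and 7.52 in controls 214, 216 and 217 and at 9.84, 7.70, 8.67 and 10.37 in flox/flox 193, 307, 313 and 335. The groups overlapped, because control 214 was above flox/flox 307 and 313. The difference was 1.63 (SE 0.81, 95% interval -0.27 to 3.52, limma adjusted p = 0.584). H2-Ab1 differed by 1.25 (SE 0.56), and the invariant chain gene Cd74 by 1.68 (SE 0.88). H2-Eb1, named after its values were seen, was at 8.29, 7.20 and 8.24 in controls and 10.36, 7.93, 8.18 and 10.17 in flox/flox animals.

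MHC class II promoters share a proximal Y box. Its letters, CTGATTGG on either strand, were found in the promoter windows of 4 of 8 list members in the RefSeq table, H2-Aa, H2-Eb1, H2-Eb2 and H2-Oa, and in 4.70% of all genes. H2-Eb2 did not pass the filter and H2-Oa was at 5.48 and 5.55 in the group means, so the windows of the other two are shown, with the match in capitals. Its first base lies at -51 from the start in H2-Aa (chr17:34287774-34288073, minus strand) and at -62 in H2-Eb1 (chr17:34305617-34305916, plus strand).
H2-Aa: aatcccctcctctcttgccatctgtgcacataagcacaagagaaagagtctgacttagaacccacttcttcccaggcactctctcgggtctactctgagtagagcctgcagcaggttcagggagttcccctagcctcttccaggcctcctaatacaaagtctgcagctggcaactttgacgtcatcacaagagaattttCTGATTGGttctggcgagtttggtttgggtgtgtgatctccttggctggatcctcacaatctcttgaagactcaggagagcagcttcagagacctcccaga
H2-Eb1: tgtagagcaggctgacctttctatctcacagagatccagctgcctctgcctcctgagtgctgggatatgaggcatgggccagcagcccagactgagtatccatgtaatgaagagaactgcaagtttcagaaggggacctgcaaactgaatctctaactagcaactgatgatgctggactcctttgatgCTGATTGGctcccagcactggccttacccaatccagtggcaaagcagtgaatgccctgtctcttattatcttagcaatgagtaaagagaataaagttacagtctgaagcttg

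Langerhans and dendritic cell genes were above 0 in 12 of 15 (median 0.10, and 0.17 without control 214), with array means of 6.10 and 6.14 in flox/flox 193 and 335 and 5.60 to 5.89 on the others. Cd207, the langerin of Langerhans cells, was at 5.11, 5.44 and 6.02 in controls and at 7.96, 5.50, 6.84 and 7.48 in flox/flox 193, 307, 313 and 335, a difference of 1.42 (SE 0.55, limma adjusted p = 0.485). T and NK cell genes were above 0 in 17 of 17 tested (median 0.43), while 8 of the 25 on the array did not pass the filter. Their mean was 7.17 in flox/flox 193 and 5.62 to 6.18 on all other arrays, and the median was 0.14 without 193. Il7r, a cytokine receptor of lymphocytes, differed by 1.28 (SE 0.52), and Ptprc, the common leukocyte antigen, by 1.28 (SE 0.73), from 5.05 to 6.81 in controls to 8.94, 5.90, 6.60 and 7.65. Cd8a, named after its values were seen, was at 8.58 in 193 and 5.65 to 6.91 elsewhere. Cd4, Cd3d, Gzma and Gzmb did not pass the filter.

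Interferon-stimulated genes were above 0 in 18 of 20 (median 0.40), with 3 of 20 higher at an unadjusted p under 0.05, against 3.69% of all genes. The median was 0.20 without control 216, 0.25 without control 214, 0.26 without flox/flox 335 and 0.61 without control 217. Irf1, Ddx58 and Tap1 differed by 0.61 (SE 0.22), 0.68 (SE 0.26) and 0.88 (SE 0.36). Tap1, which loads peptides for MHC class I, was at 8.85 in 193 and 7.08 in 307, beside 6.97 to 7.19 in controls. Members of the NF-kappaB pathway and its targets were above 0 in 15 of 21 (median 0.13, and 0.08 without control 217). Bcl3 and Ikbkb differed by 0.34 (SE 0.12) and 0.25 (SE 0.09), whereas the target Ptgs2, the inducible prostaglandin synthase, was lower on all flox/flox arrays, by 1.0 (SE 0.28). Cytokines and chemokines had a median of 0.07 over 17 genes (0.01 without control 214, 0.13 without flox/flox 307), and 10 of 27 did not pass the filter. Il18 differed by -0.86 (SE 0.30). The myeloid growth factor Csf2 did not pass the filter, at 3.80 to 4.31 on all arrays, and the monocyte chemokine Ccl2 was at 4.92 to 5.54; both are named outside the rule. Neutrophil and immature myeloid genes had a median of 0.12 over 8 tested genes (0.08 without control 214, 0.04 without flox/flox 335); Ltf was at 7.90 and 9.13 in 193 and 335 and 4.86 to 5.24 on the other 5 arrays. B cell genes had a median of -0.02 over 5 and array means of 5.28 to 5.51; mast cell genes had a median of -0.03 over 5 and were highest in control 214, at 6.50, and flox/flox 335, at 6.19.

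Macrophage and monocyte genes were highest on 2 of the muscle-rich arrays. The list's mean stood at 7.34 in control 214, 7.16 in flox/flox 335, 6.45 in 193, 6.43 in 307, 5.80 in 313 and 5.52 and 5.53 in controls 216 and 217. They were above 0 in 16 of 18 (median 0.26). The array means of the groups overlapped, and the median was 0.11 with the muscle mean as a covariate and -0.02 with sex as a covariate. It was 0.96 without control 214, 0.52 without flox/flox 313, 0.14 without flox/flox 335, 0.11 without control 216 and 0.05 without control 217.

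**Figure D4:**
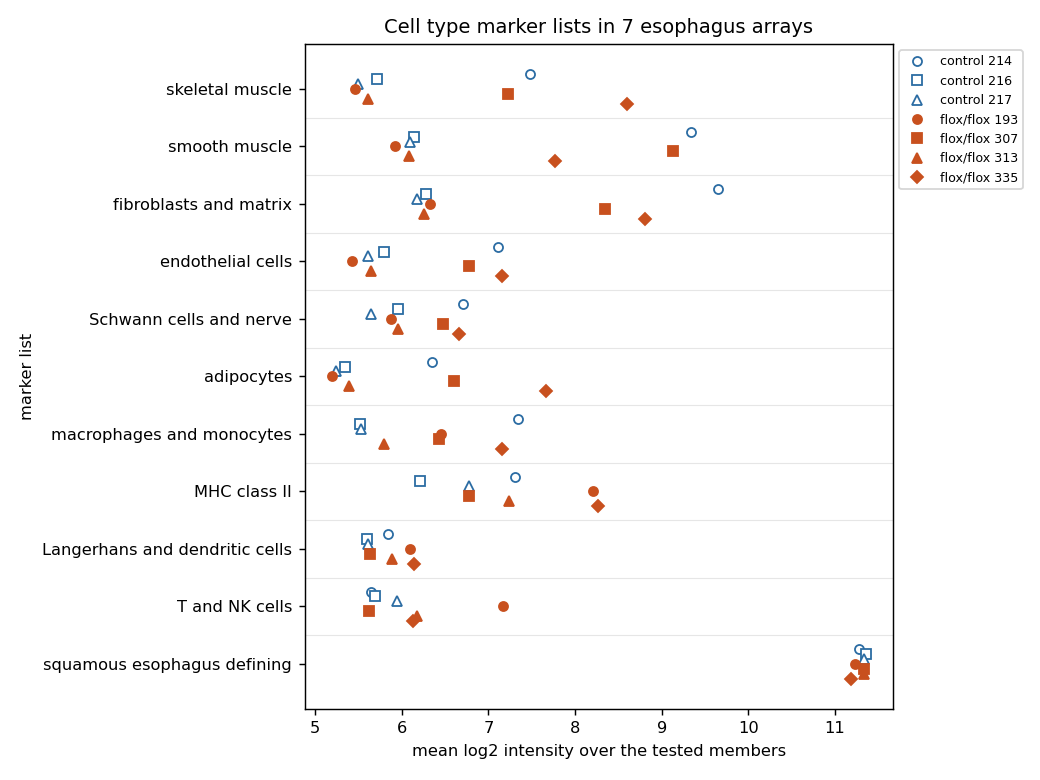
Mean log2 intensity (x) of the tested members of 11 cell type marker lists (y) in each of the 7 arrays, with open blue symbols for controls and filled orange symbols for flox/flox animals. Control 214 and flox/flox 307 and 335 are high in the muscle, fibroblast and endothelial lists, and flox/flox 193 and 335 are high in MHC class II.

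Muscle RNA moved with the error of some gene groups and hardly with that of others. Of the muscle genes, titin (Ttn) was at 9.66 in control 214, 9.54 in flox/flox 307 and 11.32 in 335, and at 5.08 to 5.22 on the other 4 arrays. The fast myosin Myh1 ran the same way, at 9.27, 9.12 and 10.48 against 4.46 to 4.83. Since a control array and flox/flox arrays were both high, the differences of Ttn (1.10, SE 1.84) and Myh1 (1.12, SE 1.83) were smaller than their errors. The list was above 0 in 30 of 32, with a median of 0.53 that was -0.05 without the 3 muscle-rich arrays, -0.13 without 335 alone and 1.10 without 214 alone. Muscle-type energy genes, including the enolase Eno3 (8.33, 7.80 and 9.25 against 6.07 to 6.34) and the glycogen phosphorylase Pygm (8.89, 8.30 and 10.29 against 5.31 to 5.92), had a median of 0.18 that was -0.02 without those arrays and -0.21 without 335 alone.

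Other tissue from below the epithelium came with the muscle, in other proportions. Fibroblast and matrix genes had a mean of 9.65 in control 214, 8.35 in flox/flox 307 and 8.81 in 335, against 6.18 to 6.33. Lum, a matrix proteoglycan, spanned 3.45 to 10.42. Smooth muscle genes were at 9.34, 9.13 and 7.77 in 214, 307 and 335, against 5.92 to 6.14, so that 335, the richest in striated muscle, was the poorest of the 3 in smooth muscle. Endothelial genes were at 7.11, 6.77 and 7.16 against 5.43 to 5.80, Schwann cell and nerve genes at 6.71, 6.48 and 6.66 against 5.65 to 5.96, and adipocyte genes at 6.35, 6.60 and 7.66 against 5.19 to 5.39. Control 214 was highest in fibroblast and smooth muscle genes. Glandular stomach genes were at 5.64 to 5.97 on all arrays, and submucosal gland and respiratory genes were high in 335 alone, at 6.13 and 6.22 beside 5.24 to 5.42 and 5.38 to 5.70.

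With genotype and the mean of the muscle list in 1 fit, 441 genes (2.88%) had a slope on that mean at an adjusted p under 0.05, 425 (2.77%) rising and 16 (0.104%) falling with it. Of these, 26 are in the muscle list that defines the mean, and 14 of 17 endothelial and 15 of 23 fibroblast genes were among the rising ones. In the keratin family, the desmosome, MHC class II and the glutathione list, 0 genes had such a slope. Smooth muscle genes, alarmins and proliferation genes also had 0, although smooth muscle genes were high on the muscle-rich arrays. In lists of this size, a count of 0 beside a share of 2.88% does not show that muscle RNA left a list unchanged. In the muscle list, whose own mean is the covariate, the median SE of a difference had to fall and went from 0.77 to 0.15. It went from 1.02 to 0.43 in fibroblast genes and from 0.55 to 0.13 in endothelial genes. It also went from 0.36 to 0.24 in alarmins, from 0.29 to 0.19 in proliferation genes and from 0.56 to 0.38 in macrophage genes, of which 3 had a slope. It was 0.11 both ways in the desmosome, 0.62 both ways in stress keratins, and went from 0.46 to 0.45 in MHC class II and from 0.16 to 0.15 in glutathione genes. Over all genes it went from 0.116 to 0.111. With the fibroblast mean as the covariate instead, the median SE was 0.17 in proliferation genes, 0.23 in macrophage genes and 0.15 in endothelial genes. In smooth muscle genes it went from 1.21 to 0.85 with the muscle mean and to 0.52 with the fibroblast mean. Both means were high on the same arrays, and the part of each was not tested.

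**Figure D5:**
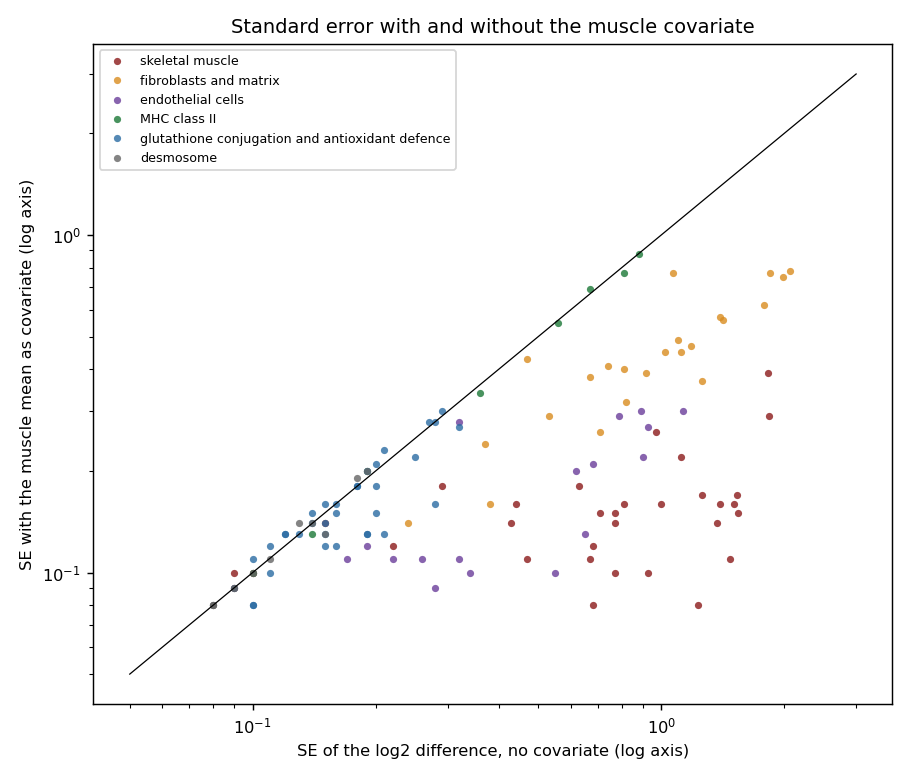
Standard error (SE) of the log2 difference without a covariate (x) and with the muscle mean as a covariate (y), both on log axes, for each tested gene of 6 lists; the line marks equal values. Muscle, fibroblast and endothelial genes fall below the line, while glutathione, desmosome and MHC class II genes lie near it. The muscle genes define the covariate, so their lower SE follows from its construction.

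Krt6a, Dsg3, Gclm and Cdh3 kept nearly the same difference with the muscle mean in the fit. Krt6a was 3.82 with it and 3.81 without it, Dsg3 1.03 both ways, Gclm -0.60 and -0.62, and Cdh3 1.07 and 1.0. The list median moved more in alarmins, from 0.28 to 0.46, and in proliferation genes, from 0.29 to 0.41. Some lists of tissue from below the epithelium moved further. Fibroblast genes went from -0.02 to -0.48, smooth muscle genes from -0.01 to -0.44 and endothelial genes from 0.09 to -0.17. Of 23 fibroblast genes, 12 were below 0 without the muscle mean and 22 with it, and of 17 endothelial genes 3 and 14. The muscle mean differed little between the groups for its spread, at 6.73 in flox/flox and 6.23 in controls (SD 1.48 and 1.09). With the muscle mean 0 genes were called and 1669 (10.9%) had an unadjusted p under 0.05. Of the 1442 genes with an unadjusted p under 0.05, 1234 had one with the muscle mean too, and 682 with sex in its place. Of the 15317 genes, 300 had a within-group SD above 1; 178 of these had a slope on the muscle mean, and 102 genes had an SD above 1 once it was in the fit. The slope of Krt6a on the muscle mean was -0.03 (limma adjusted p = 0.975), although flox/flox 307 and 335, both rich in muscle RNA, differed widely in Krt6a.

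Leaving out the 3 muscle-rich arrays left controls 216 and 217 against flox/flox 193 and 313, and 14 genes (0.0914%) were called. In that comparison both controls are male and both flox/flox animals female, so genotype and sex cannot be told apart, and 4 of the 14 were Xist, Uty, Eif2s3y and Kdm5d. Krt6a was among the others, at 4.39 (SE 0.23, limma adjusted p = 0.00355), and so were Stom at 2.10 (adjusted p = 0.0244) and Ces1f at -1.93 (0.0328). In control 214, which is female and rich in muscle RNA, Krt6a was at 6.50, Stom at 8.92 and Ces1f at 6.52. Each lay on the control side of every flox/flox array. The other called genes were not all placed so. For Chil1 control 214 was at 10.12 and flox/flox 307 at 6.98, and for Il20ra they were at 6.66 and 6.41. For Adamts1 control 214 was at 7.65 and flox/flox 313 at 7.10. Control 214 is a single animal, so the part of sex in the called genes was not tested by these values.

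The flox/flox animals differed among themselves. Among the 1085 genes whose groups did not overlap and whose unadjusted p was under 0.05, flox/flox 307 was the array nearest to the controls in 591 (54.5%), 313 in 295, 193 in 108 and 335 in 91. Animal 193 was the farthest in 446 and 335 in 423. Without 307, 8 genes (0.0522%) were called by limma, and they are named for that, most of them after their values were seen. Krt6a differed by 4.40 (adjusted p = 0.00392), Stom by 2.08 (0.00613), the ribonuclease Rnase2b by 4.52 (0.0110), the interleukin receptor subunit Il20ra by 2.19 (0.0363), Urah by 1.30 (0.0373), Dennd5b by 1.27 (0.0395) and Tmprss11g by 2.31 (0.0462), while the iron exporter Slc40a1 differed by -1.78 (0.0459). Rnase2b was at 7.13, 7.86 and 7.35 in controls, at 12.42, 11.45 and 12.03 in flox/flox 193, 313 and 335, and at 7.72 in 307, within the controls. Animal 307 is the only male of its group and is rich in muscle RNA; the part of either in its place near the controls was not tested. With sex as a covariate the difference of Krt6a was 3.22 and 751 genes (4.90%) had an unadjusted p under 0.05.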

How the data were processed

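Intensity values were used as deposited by the authors, who made them with GCRMA per the submitters' processing notes, with no version given; the values are linear, and no further step is stated there. Each value was floored at 1 (0 values lay below it) and log2-transformed. Of 34729 probe sets, 21633 had 1 gene in the platform annotation, 1306 several and 11790 none; 21546 matched RefSeq. A gene was read from its probe set with the highest mean over the 7 esophagus arrays and tested if above 5 on at least 3 of them, which left 15317 of 19934 genes. Groups were compared with limma 3.58.1 in R 4.3.3 (lmFit, eBayes; Benjamini-Hochberg adjustment over all genes tested, threshold 0.05), with 5 residual degrees of freedom and 95% intervals. The code was tested on simulated data. Samples are separate animals by their numbers, and no animal gave both genotypes. The members and the 46 gene lists were chosen with earlier results of these data known. Named genes were Ctnnd1, genes called with all 13 arrays, the 8 largest differences each way among non-overlapping genes with an unadjusted p under 0.05, the 3 smallest p in each keratin, junction, epithelial, immune and metabolic list, stress, basal and suprabasal keratins, the 3 widest ranges in lists of other cell types, and Cdh1, Cdh3, Ctnnb1, Ctnna1, Jup, Dsg3 and Ptprc. Alternatives varied the arrays, filter, probe rule, normalization, floor, weights, variance model and covariates; those with the fibroblast mean, or with muscle and sex together, were added after seeing the data. The counts of 1 gene list are not reported here.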

Additional observations from a re-analysis of the deposited data

Results flagged for a closer look

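Among 206 values of named genes and list means over the 4 flox/flox arrays, 7 had 1 array far from the other three, by a gap above Dixon's critical value for groups of 4; chance flags about 1 in 20 such groups. In animal 335, the gland and airway genes Bpifb1, Muc5b and Scgb3a1 were at 7.44, 6.27 and 7.09, beside 4.87 to 5.16, 5.27 to 5.32 and 5.05 to 5.11 on the other flox/flox arrays. The mean of mast cell genes was 6.19 in 335 and 5.65 to 5.74 in the others. In animal 193, Sdc3 was at 7.49, beside 7.14 to 7.19, and the mean of glandular stomach genes was 5.64, beside 5.85 and 5.86. In animal 307, the dendritic cell receptor gene Xcr1 was at 4.88, beside 5.22 to 5.24.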

How the results depend on the processing

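The count of genes called was 0 with the 7 arrays and stayed at 0 without the filter, with the mean of probe sets, quantile normalization, median centring, a floor of 16, array weights, trended robust variances, and muscle, fibroblast, sex, or muscle and sex covariates. It was 2 with all 13 arrays, 1 with the stricter filter and 14 without animals 214, 307 and 335, and 0 to 8 when each animal was left out, with 8 only without 307. The fit of 13 arrays with a replicate block for the animal called 0 genes, and 1064 had an unadjusted p under 0.05. Genes with an unadjusted p under 0.05 numbered 1442, from 815 (without control 217) to 1957 (without flox/flox 307) when each animal was left out, 951 without 335, and 751 with sex as a covariate. Of 158 named genes, 6 were called in some alternative. Of 47 list medians, rounded to 2 decimals, 25 changed sign or moved to or from 0 in at least 1 alternative, 5 of them at or beyond 0.2 in size: alarmins and simple keratins (stricter filter; the keratins also without 335), macrophages (sex; muscle and sex), adipocytes (without 214, 307 and 335) and skeletal muscle (muscle covariate alone or with sex; without 335; without 214, 307 and 335). The muscle covariate is the mean of the skeletal muscle list, so that list's median near 0 with it was fixed by construction. The causes of the other changes were not tested. The number of arrays limits the precision.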

Other observations

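Immediate early genes, which respond to handling of tissue, had a median difference of -0.08 over 19 genes, and the lowest array means were 7.55 in flox/flox 193 and 7.70 in control 214. The following genes were named after their values were seen. The transglutaminase gene Tgm2 was at 6.11 and 6.16 in flox/flox 193 and 313, and at 8.04 to 9.39 on the other 5 arrays, which include the muscle-rich ones. Adamts1, a secreted metalloprotease gene, stood at 5.60 and 5.70 in controls 217 and 216 and at 7.65 in control 214, beside 7.10 to 8.27 across the flox/flox arrays. For Adamts1 the muscle-rich control lay among the flox/flox arrays.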
